A study of Homo sapiens with 8 samples.

Results

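Expression of 10 human genes that low oxygen induces and that encode no enzyme of glycolysis was followed: BNIP3, BNIP3L, ADM, P4HA1, P4HA2, VEGFA, EGLN1, EGLN3, NDRG1 and ANKRD37. They were chosen by name as hypoxia-inducible genes outside glycolysis, 10 of the 25168 genes in the count table. Of these, 8 had enough reads to be tested, and P4HA2 and EGLN3 were nearly absent. The cells were KG1a, an established line from a human acute myeloid leukemia, whose phenotype is immature, and RNA was measured by sequencing. All groups were harvested at 48 h. The vehicle group received DMSO, the TAK-981 group 5 µM TAK-981, the venetoclax group 1 µM venetoclax, and the combination group both drugs at those doses. TAK-981 blocks SUMOylation, the attachment of the small modifier SUMO to proteins, at its first enzyme. Venetoclax binds BCL2, a survival protein that holds back apoptosis. Each group held 2 libraries, 8 in all, from a single cell line. No label gives the oxygen level of the cultures, and none states separate cultures for libraries of the same group. The p-values therefore measure only the spread among these libraries, and that spread may be technical.

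Hypoxia-inducible factors, or HIFs, are transcription factors made of an oxygen-regulated alpha subunit and the stable partner ARNT. When oxygen is ample, the prolyl hydroxylases of the EGLN family mark the alpha subunit, VHL binds the mark and the subunit is degraded. When oxygen is low, or the hydroxylases are blocked, the alpha subunit accumulates and the factor binds short hypoxia response elements with the core letters ACGTG or GCGTG. Its targets outside glycolysis serve several tasks. BNIP3 and BNIP3L remove mitochondria, P4HA1 and P4HA2 hydroxylate collagen, ADM and VEGFA are secreted and act on vessels, and EGLN1 and EGLN3 feed back on HIF itself.

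Those core letters were searched on both strands in the 250 bases before the start of each gene in RefSeq promoters of GRCh38.p14. The table held 7 of the 10 genes, and 5 of them had a match. Over all 35116 promoters of the same length, 15172 or 43.2% had a match. BNIP3L, VEGFA and NDRG1 have no entry. P4HA2 and EGLN3 had 0 matches, which says only that these letters are not in that window. The stretches of 30 bases that hold matches are shown for the tested genes that had a match. Matching letters are in capitals, 5′ to 3′ on the strand of the gene.
BNIP3: cgcgCACGCgccgCACGTGccaCACGCacc
ADM: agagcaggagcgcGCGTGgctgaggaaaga
P4HA1: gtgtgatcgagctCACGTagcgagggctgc
EGLN1: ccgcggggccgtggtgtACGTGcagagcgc
ANKRD37: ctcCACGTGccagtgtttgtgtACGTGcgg
The BNIP3 stretch lies at chr10:131982041-131982070 on the minus strand, 147 to 118 bases before the start, and holds 4 of the 6 matches in that promoter. Its 6-letter palindrome, like the one in ANKRD37, reads as ACGTG on both strands and so counts as 2 overlapping matches. The ADM stretch lies at chr11:10304959-10304988 on the plus strand, 114 to 85 bases before the RefSeq start. The P4HA1 stretch lies at chr10:73096936-73096965 on the minus strand, 99 to 70 bases before the start, and holds the reverse complement of ACGTG. The EGLN1 stretch lies at chr1:231422288-231422317 on the minus strand and reaches the base before the start. The ANKRD37 stretch lies at chr4:185396676-185396705 on the plus strand, 165 to 136 bases before the start, and holds 3 matches. In GENCODE v29 the stretches of ADM, P4HA1, EGLN1 and ANKRD37 fall in an annotated exon of the same gene, since that annotation starts the gene earlier, and no gene covers the BNIP3 stretch. A match describes letters, and no binding was measured here.

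Library totals ran from 13204588 to 26304900 counts. Among 9858 genes with a mean of at least 5 CPM (counts scaled by library total, with TMM normalization), the median log2 difference between the libraries of a group was 0.262 for venetoclax. It was between 0.088 and 0.101 for the other groups. Venetoclax replicate 1 was above replicate 2 for 7 of the 8 tested hypoxia genes, with NDRG1 the exception. The genes were tested in a single edgeR fit over the 8 libraries, so that wider spread entered the error of every comparison. Of 8 markers of immature hematopoietic cells, 8 were tested, and their summed level was between 3814 and 4540 CPM in every library. KIT, between 0.688 and 1.62 CPM, and SPI1, between 0.430 and 1.15 CPM, added little to that sum. Erythroid markers summed to at most 0.146 CPM, with 4 of 6 at 0 in every library, and 0 of 6 were tested. Monocyte markers summed to at most 0.945 CPM and stromal markers to at most 1.53 CPM. The endothelial list, with 3 of 6 markers tested, summed to between 13.5 and 24.6 CPM.

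With venetoclax, transcripts of all 8 tested genes fell, to between 18.9% of the vehicle mean for ADM and 47.9% for EGLN1. With both drugs 7 of the 8 fell, to between 7.42% for ADM and 41.7% for BNIP3L, while NDRG1 stood at 97.9% of vehicle. Between ADM and BNIP3L, the combination left 9.60% of BNIP3, 12.6% of P4HA1, 21.2% of VEGFA, 23.8% of ANKRD37 and 34.9% of EGLN1. With TAK-981 alone 0 of the 8 passed the test. ADM stood at 51.6% of vehicle, P4HA1 at 80.6%, EGLN1 at 82.4% and ANKRD37 at 86.2%. BNIP3L stood at 109%, VEGFA at 109%, BNIP3 at 142% and NDRG1 at 143%. In bulk RNA a change in the share of cells of a kind and a change in RNA per cell cannot be told apart.

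Levels were compared between genes per length. On the scale of CPM per kilobase of gene length (RPKM), P4HA1 at 109.7 ± 12.9 (SD, n = 2) and BNIP3L at 108 ± 8.41 were the highest in vehicle and did not differ beyond their spread. BNIP3 followed at 37.5 ± 2.73 RPKM, EGLN1 at 20.5 ± 0.831, ADM at 9.12 ± 1.46 and NDRG1 at 3.70 ± 0.268. ANKRD37 at 1.996 ± 0.389 RPKM and VEGFA at 1.81 ± 0.0981 were the lowest and did not differ beyond their spread. The length of VEGFA in the authors' table is 14.4 kb, so its level per length depends on that gene model. With both drugs the order changed. BNIP3L at 44.9 ± 1.54 RPKM then stood alone above P4HA1 at 13.8 ± 0.1104 and EGLN1 at 7.17 ± 0.292, and BNIP3 at 3.60 ± 0.0383 had come down to the level of NDRG1 at 3.62 ± 0.149.

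**Figure D1:**
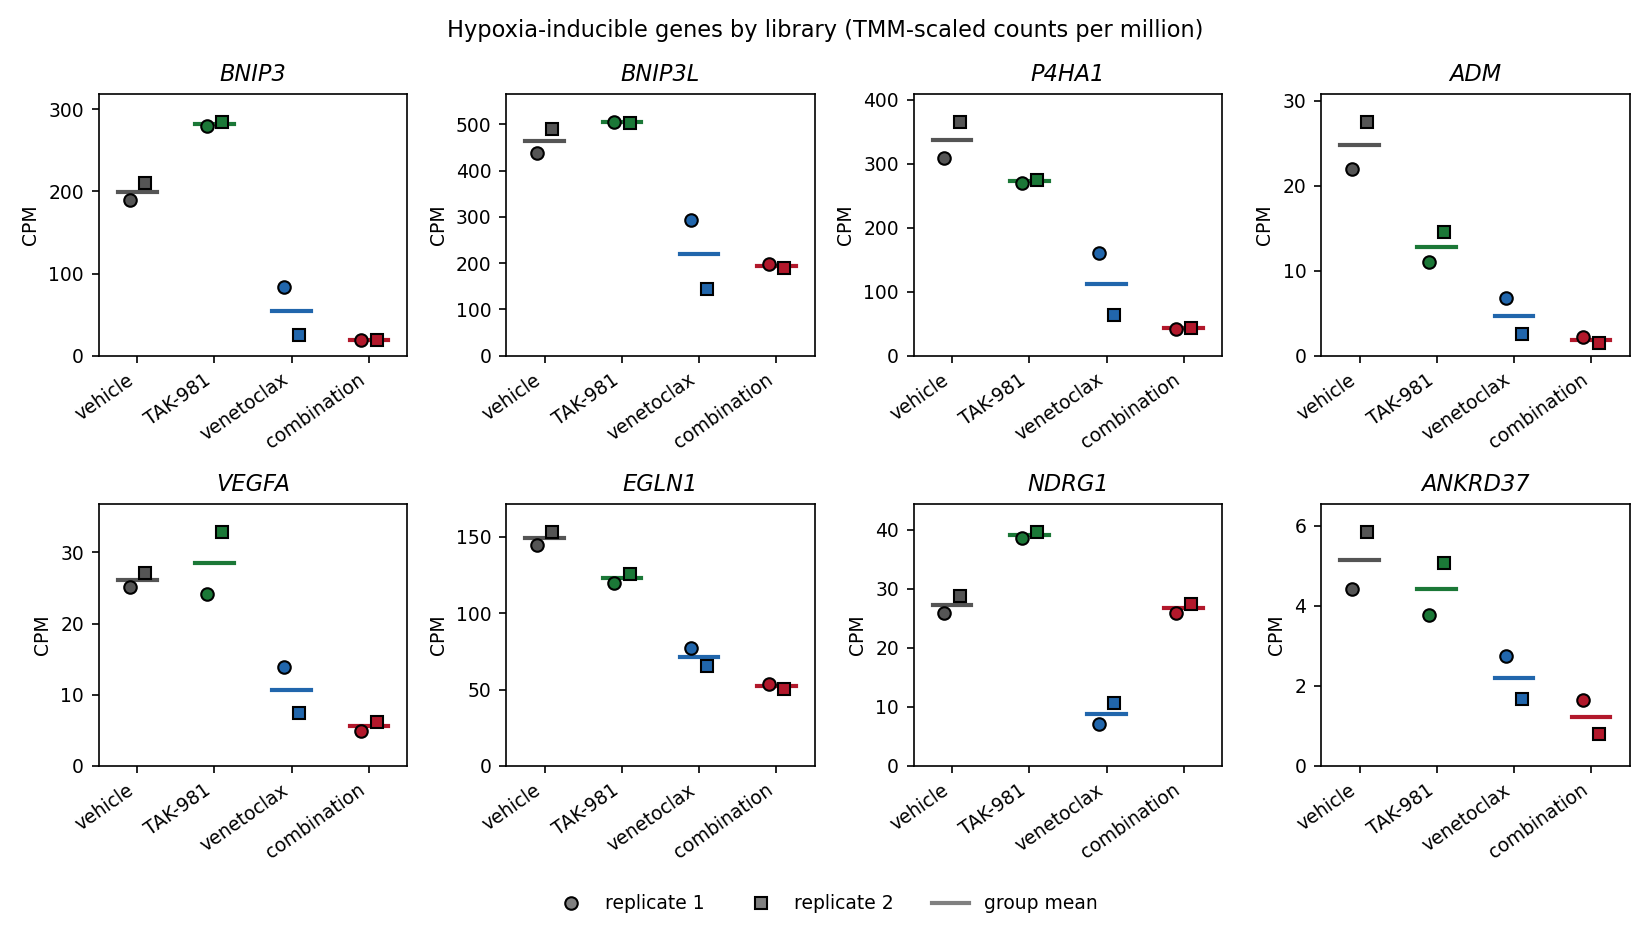
Level of each of the 8 tested genes in every library, in TMM-scaled CPM on a linear axis from 0, 1 panel a gene; circles are replicate 1, squares replicate 2 and bars the group means of the 4 groups. With both drugs 7 of the 8 were called lower than vehicle, where 15.1% of all genes tested were. NDRG1 alone stood at the vehicle level, at 26.0 and 27.5 CPM.

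BNIP3 (chr10:131966455-131982013, minus strand, hg38) encodes an outer mitochondrial membrane protein of the BCL2 family that recruits the machinery of mitophagy, the removal of mitochondria. Its level was 189 and 209.8 CPM in the vehicle libraries, 279.8 and 285.0 CPM with TAK-981, 84.1 and 24.8 CPM with venetoclax, and 19.3 and 19.0 CPM with both drugs. The 4 groups did not overlap in any pair, with TAK-981 the highest and the combination the lowest. TAK-981 against vehicle did not pass edgeR's test (adjusted p = 0.479). Venetoclax libraries differed 3.39-fold from each other, the widest gap among the 8 genes. The change with venetoclax was -1.90 on the log2 scale (SE 0.416, adjusted p = 0.0148, edgeR quasi-likelihood test), and with both drugs it was -3.38 (SE 0.449, adjusted p = 0.000925). Against TAK-981 alone, the combination was lower by a log2 difference of -3.88 (SE 0.457, adjusted p = 0.00276), the largest difference among the 8 genes in any comparison. Both drugs together also gave a lower level than venetoclax alone, with a log2 difference of -1.48 (SE 0.435, adjusted p = 0.0250). That last value was -0.38 without venetoclax replicate 1 and -2.14 without replicate 2.

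BNIP3L (chr8:26382898-26505636, plus strand), also called NIX, is the paralog of BNIP3 and the receptor through which maturing red cells clear mitochondria. Its level was 438 and 489 CPM in vehicle, 506 and 503 with TAK-981, 294 and 144 with venetoclax, and 198 and 188 with both drugs. Every venetoclax and combination library lay below every vehicle and TAK-981 library, and the venetoclax pair spanned the combination pair. The change was -1.09 with venetoclax (SE 0.260, adjusted p = 0.0200) and -1.26 with both drugs (SE 0.261, adjusted p = 0.00739). The difference between the combination and venetoclax did not pass the test (log2 difference -0.18, SE 0.259, adjusted p = 0.611). The direction of that difference depended on a single library: it was 0.42 without venetoclax replicate 1, past the threshold with adjusted p = 0.00286, and -0.61 without replicate 2. Of the mitophagy pair, then, BNIP3 ended at 9.60% of vehicle and BNIP3L at 41.7%. Their difference in response was not tested.

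P4HA1 (chr10:73007217-73096974, minus strand) encodes a catalytic alpha subunit of the prolyl hydroxylase that stabilizes collagen. Its level was 309 and 366 CPM in vehicle, 271 and 274 with TAK-981, 160.0 and 64.3 with venetoclax, and 42.3 and 42.8 with both drugs. The groups formed a descending series in that order with no overlap between neighbours. The step from vehicle to TAK-981 did not pass edgeR's test (adjusted p = 0.599). Both TAK-981 libraries lay below both vehicle libraries for 32.9% of all genes tested. P4HA1 changed by -1.60 on the log2 scale with venetoclax (SE 0.325, adjusted p = 0.0113) and by -2.99 with both drugs (SE 0.345, adjusted p = 0.000490). It was lower with both drugs than with venetoclax alone by a log2 difference of -1.39 (SE 0.332, adjusted p = 0.0105), a difference that was -0.60 without venetoclax replicate 1. The other alpha subunit gene, P4HA2 (chr5:132191838-132295271, minus strand), had 10 reads over the 8 libraries, between 0 and 3 a library. The 2 libraries with 0 reads allow up to 0.128 CPM in vehicle replicate 2 and 0.117 CPM in venetoclax replicate 2, at 3 counts and for counting error only. No change in P4HA2 was detectable at this depth.

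ADM (chr11:10304680-10307397, plus strand) encodes adrenomedullin, a secreted peptide that widens vessels. Its level was 21.98 and 27.57 CPM in vehicle, 11.002 and 14.5 with TAK-981, 6.78 and 2.57 with venetoclax, and 2.15 and 1.53 with both drugs. As for P4HA1, each group lay wholly below the one before it, and the step from vehicle to TAK-981 did not pass edgeR's test (adjusted p = 0.0983). ADM had the lowest share of vehicle left among the 8 genes after venetoclax and after both drugs. The log2 change was -2.49 with venetoclax (SE 0.371, adjusted p = 0.00412) and -3.71 with both drugs (SE 0.410, adjusted p = 0.000410). The combination lay below venetoclax by a log2 difference of -1.22 (SE 0.449) that missed the threshold (adjusted p = 0.0568), and DESeq2 gave -1.27 with adjusted p = 0.00612. It was -0.45 without venetoclax replicate 1 (adjusted p = 0.286) and -1.84 without replicate 2 (adjusted p = 0.000148).

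VEGFA (chr6:43770184-43786487, plus strand) encodes the main growth factor of vessels. Its level was 25.1 and 27.1 CPM in vehicle, 24.2 and 32.9 with TAK-981, 13.9 and 7.40 with venetoclax, and 4.89 and 6.19 with both drugs. The vehicle libraries lay between the TAK-981 libraries, and every library with venetoclax lay below all of these. VEGFA changed by -1.33 on the log2 scale with venetoclax (SE 0.276, adjusted p = 0.0121) and by -2.25 with both drugs (SE 0.293, adjusted p = 0.000843). It was lower with both drugs than with venetoclax by a log2 difference of -0.92 (SE 0.303, adjusted p = 0.0376). That call was lost without venetoclax replicate 1 (-0.45, adjusted p = 0.120), without either vehicle replicate (adjusted p = 0.0607 and 0.0609), without either combination replicate (0.200 and 0.0869 as adjusted p) and in the fit of those 4 libraries alone (adjusted p = 0.106). The endothelial marker list, read as a sum, was 13.5 to 15.2 CPM with venetoclax and 20.6 to 21.4 CPM in vehicle, and 19.0 to 24.6 CPM with both drugs, where ADM and VEGFA were lowest. Its 3 tested genes moved apart with both drugs, TEK by 3.17 and VWF by 1.01 up and PECAM1 at -0.77. Its part in the ADM and VEGFA results was not tested.

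EGLN1 (chr1:231363751-231425044, minus strand) encodes PHD2, the main oxygen sensor that marks HIF alpha subunits for degradation and is itself a HIF target. Its level was 145 and 153 CPM in vehicle, 119.9 and 126 with TAK-981, 77.5 and 65.3 with venetoclax, and 53.5 and 50.5 with both drugs. The groups descended in that order without overlap, though the step from vehicle to TAK-981 did not pass edgeR's test (adjusted p = 0.126). The gap between the venetoclax libraries was 1.19-fold, the narrowest of the 8 genes. EGLN1 had the smallest error of the set. The log2 change was -1.07 with venetoclax (SE 0.108, adjusted p = 0.00145), -1.52 with both drugs (SE 0.1096, adjusted p = 5.32e-05) and -0.45 between the combination and venetoclax (SE 0.109, adjusted p = 0.0109). The related sensor gene EGLN3 (chr14:33924231-34222877, minus strand), often among the most strongly hypoxia-induced transcripts, had 3 reads over the 8 libraries and at most 1 in any. Both combination libraries had 0 reads, which allows up to 0.137 and 0.218 CPM, and no change was detectable at this depth.

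NDRG1 (chr8:133237171-133302022, minus strand) encodes a cytoplasmic protein of the NDRG family that stress and differentiation induce. Its level was 25.9 and 28.7 CPM in vehicle, 38.6 and 39.7 with TAK-981, 7.08 and 10.6 with venetoclax, and 26.0 and 27.5 with both drugs. Venetoclax libraries were the lowest, TAK-981 libraries the highest, and the combination libraries lay between the vehicle libraries. TAK-981 against vehicle did not pass edgeR's test (adjusted p = 0.0757). With venetoclax, NDRG1 changed by -1.60 on the log2 scale (SE 0.178, adjusted p = 0.00177). With both drugs the log2 difference from vehicle was -0.03 (SE 0.167, adjusted p = 0.908). The combination was above venetoclax alone by 1.56 (SE 0.180, adjusted p = 0.000485), the only rise among the 8 genes in that comparison. Against TAK-981 alone the combination was at -0.55 (SE 0.167, adjusted p = 0.0763), and fitted without the venetoclax libraries the value was -0.55 with adjusted p = 0.000715.

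ANKRD37 (chr4:185396021-185400628, plus strand) encodes a small ankyrin repeat protein and was the least counted of the tested genes, with 548 reads over the 8 libraries. Its level was 4.43 and 5.85 CPM in vehicle, 3.78 and 5.08 with TAK-981, 2.74 and 1.68 with venetoclax, and 1.65 and 0.801 with both drugs. Vehicle and TAK-981 libraries overlapped, and the venetoclax and combination libraries lay below them in that order. ANKRD37 changed by -1.28 with venetoclax (SE 0.341, adjusted p = 0.0294) and by -1.99 with both drugs (SE 0.365, adjusted p = 0.00423). The difference between the combination and venetoclax was -0.72 (SE 0.404, adjusted p = 0.184). The gene overlaps UFSP2 on the opposite strand by 1089 bases. The strand setting of the counting is not given in the sources used here, so reads of the pair cannot be told apart.

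**Figure D2:**
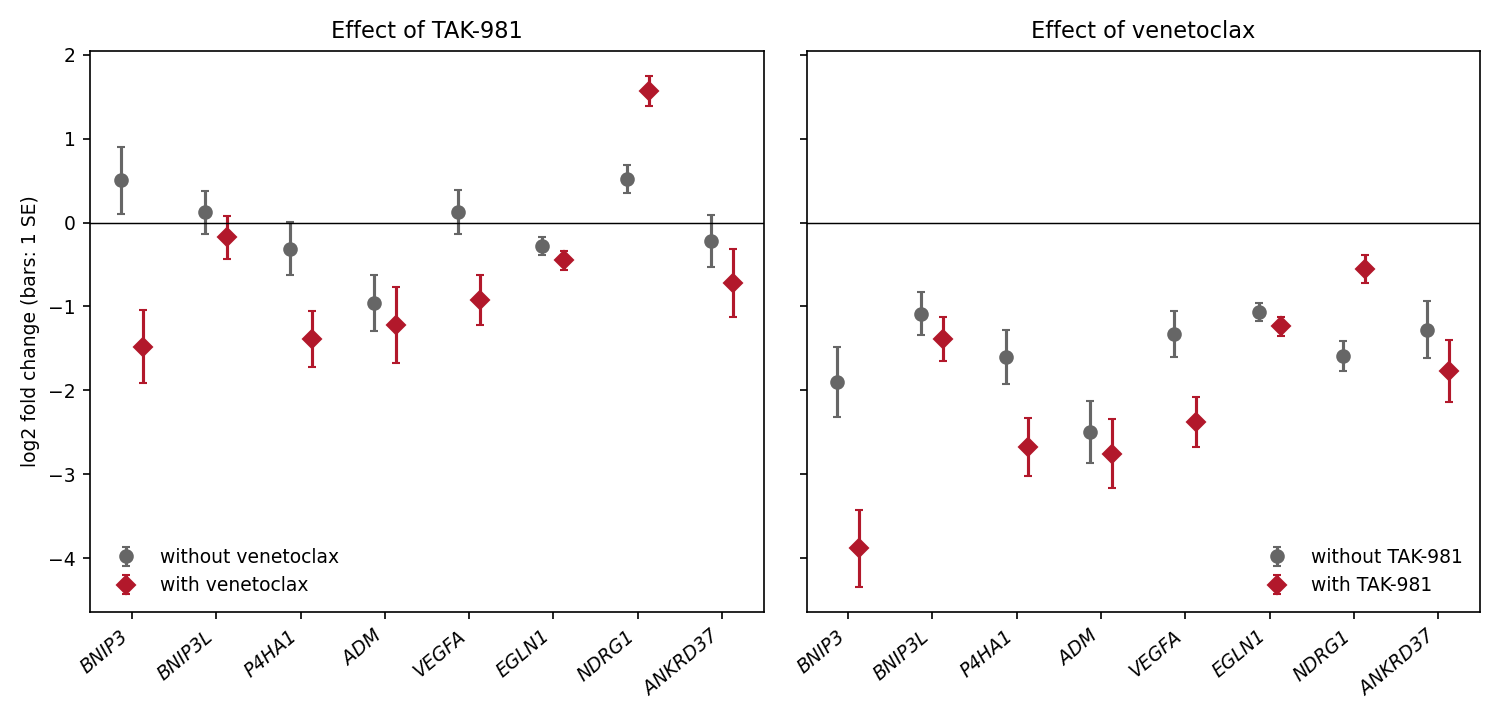
Log2 fold change of each of the 8 genes from the edgeR fit, with bars of 1 SE, for TAK-981 without and with venetoclax (left) and for venetoclax without and with TAK-981 (right). All 8 values for venetoclax lie below 0 in both settings, and NDRG1 alone lies above 0 for TAK-981 given with venetoclax.

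Read against all genes, the count of falls with venetoclax was 8 of the 8 tested, where 9.44% of the 12843 genes tested fell and 11.4% rose. All 8 also had both venetoclax libraries below both vehicle libraries, as did 28.5% of all genes tested. Their median log2 change was -1.46, beside 0.00 over all genes tested. In a fit of the 4 vehicle and venetoclax libraries alone, ADM, EGLN1 and NDRG1 passed, where 1.11% of all genes fell, and the other 5 had adjusted p from 0.0675 to 0.0955. Without vehicle replicate 1, or without replicate 2, BNIP3, BNIP3L, P4HA1, VEGFA and ANKRD37 missed the threshold. ANKRD37 missed it as well without venetoclax replicate 2, at -0.91, and without TAK-981 replicate 1 or 2, at -1.27 and -1.28. Sizes moved with the venetoclax libraries. Without replicate 1 and without replicate 2, BNIP3 was at -3.01 and -1.25, BNIP3L at -1.68 and -0.66, and P4HA1 at -2.39 and -1.08. ADM was at -3.26 and -1.87, VEGFA at -1.82 and -0.91, EGLN1 at -1.19 and -0.94, NDRG1 at -1.36 and -1.95, and ANKRD37 at -1.61 without replicate 1.

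With both drugs, 7 of 8 fell against vehicle, where 15.1% of all genes fell and 12.8% rose. The median of the 8 was -2.12, beside 0.01 over all genes. Against TAK-981 alone 7 of 8 were again lower and 0 higher, where 6.03% of all genes were lower and 2.76% higher. The comparison of the combination with TAK-981 shares no library with that of venetoclax with vehicle. Both come from the single fit and share its estimate of the spread, so their p-values are not independent. Against TAK-981 the median of the 8 was -2.07, beside 0.02 over all genes. Behind BNIP3, the log2 differences were -2.75 for ADM (SE 0.415, adjusted p = 0.00623), -2.68 for P4HA1 (SE 0.341, adjusted p = 0.00326) and -2.38 for VEGFA (SE 0.293, adjusted p = 0.00310). ANKRD37 was at -1.77 (SE 0.371, adjusted p = 0.0221), BNIP3L at -1.38 (SE 0.262, adjusted p = 0.0150) and EGLN1 at -1.24 (SE 0.109, adjusted p = 0.00115). The order from strongest to weakest thus differed from that with venetoclax alone, where ADM came first, though the difference in order was not tested. The count of 7 became 4 without TAK-981 replicate 2 or combination replicate 1 and 2, VEGFA and EGLN1, without combination replicate 2. Against venetoclax alone 4 genes (BNIP3, P4HA1, VEGFA and EGLN1) were lower and NDRG1 was higher, where 22% of all genes were lower and 17.6% higher. The count of 5 was 2 in the fit of those 4 libraries alone (P4HA1 lower and NDRG1 higher, where 20.3% of all genes passed). It was 2 without combination replicate 1 (EGLN1 and NDRG1) and 1 without combination replicate 2 (NDRG1).

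For TAK-981 against vehicle 0 of 8 genes passed edgeR's test, where 12.2% of all genes did, while 3 had an unadjusted p under 0.05, as did 26.6% of all genes. DESeq2 called 2, ADM and NDRG1, and 13.2% of all genes. The largest differences were -0.96 for ADM (SE 0.333, adjusted p = 0.0983), 0.52 for NDRG1 (SE 0.165, adjusted p = 0.0757) and 0.50 for BNIP3 (SE 0.396, adjusted p = 0.479). BNIP3, BNIP3L and NDRG1 had both TAK-981 libraries above both vehicle libraries, as did 32.4% of all genes tested. ADM, P4HA1 and EGLN1 had both below, as did 32.9% of all genes, and VEGFA and ANKRD37 overlapped. P4HA1 was at -0.31, EGLN1 at -0.28, ANKRD37 at -0.22, and BNIP3L and VEGFA were both at 0.12, with adjusted p from 0.126 to 0.817. When both venetoclax libraries were left out of the fit, 5 of the 8 passed at nearly the same sizes, and 30.2% of all genes passed in that fit. BNIP3 at 0.50 (adjusted p = 7.26e-05) and NDRG1 at 0.52 (adjusted p = 0.000833) were then higher. ADM at -0.96 (adjusted p = 0.000467), P4HA1 at -0.31 (adjusted p = 0.00718) and EGLN1 at -0.28 (adjusted p = 0.00680) were lower.

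An interaction term was tested, the change due to TAK-981 in the presence of venetoclax less that in its absence, for each gene. It passed for 0 of the 8 and for 0.0311% of all genes, 4 in number, while 2427 genes, or 18.9%, had an unadjusted p under 0.05. NDRG1 had an interaction of 1.05 (SE 0.243, adjusted p = 0.127), and DESeq2 gave 1.07 with adjusted p = 0.00929. BNIP3 had -1.98 (SE 0.588, adjusted p = 0.167), with every TAK-981 library above every vehicle library and every combination library below every venetoclax library. VEGFA at -1.05 (adjusted p = 0.212) and P4HA1 at -1.08 (adjusted p = 0.246) followed, and these 4 were the ones with an unadjusted p under 0.05. The 4 remaining values lay between -0.17 for EGLN1 and -0.50 for ANKRD37. DESeq2 called 266 genes in all, or 2.07%, NDRG1 the only one of the 8.

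Other genes of the same biology were read from lists. Of all genes tested, 9.44% fell with venetoclax and 15.1% with both drugs, and 6.03% were lower with both drugs than with TAK-981. Against venetoclax alone 22% were lower and 17.6% higher. Of 46 other hypoxia-inducible genes outside glycolysis, 35 were tested, and 24 fell and 0 rose with venetoclax, with a median of -1.01. The 24 included the transcription regulators BHLHE40 (-1.59) and ZNF395 (-1.45), the histone demethylase KDM4B (-1.003) and TMEM45A (-2.48). The count of 24 was 6 in the fit of the 4 libraries alone, and 6 and 9 without vehicle replicate 1 and 2. With both drugs 23 of 35 fell and 1 rose against vehicle (15 fell without combination replicate 1), with AK4, a mitochondrial adenylate kinase, at -1.76 and the glycogen branching enzyme GBE1 at -2.56. Against TAK-981 alone 19 were lower and 1 higher, with 10 and 7 lower without TAK-981 replicate 1 and 2 and 6 and 5 without combination replicate 1 and 2. There STC2, a secreted glycoprotein, had 339 reads with TAK-981 and 0 with both drugs, at least 47.9-fold higher with TAK-981 at a floor of 3 counts per library. Against venetoclax alone the list split, with 9 higher and 5 lower (14 lower without venetoclax replicate 2). LOX, a collagen crosslinking enzyme, was higher by 1.25 and the stress factor DDIT3 by 1.56. Of 22 glycolysis genes, 17 fell with venetoclax and 18 with both drugs, with medians of -0.90 and -1.30, nearer to 0 than those of the 8 genes, a difference that was not tested. The count of 17 was 10 in the fit of the 4 libraries alone. With TAK-981 alone 12.2% of all genes passed. In that comparison 1 gene of the other hypoxia list rose and 2 fell, and 1 of the glycolysis list rose and 3 fell. Without vehicle replicate 1 the falls were 1 and 0, and without vehicle replicate 2 or either TAK-981 replicate they were 0 and 0. They were 9 and 6 with no venetoclax libraries, 9 and 7 in the fit of the 4 libraries alone and 7 and 6 with no filter. In those fits 2003 of 12793, 2059 of 12590 and 1138 of 18124 genes fell.

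**Figure D3:**
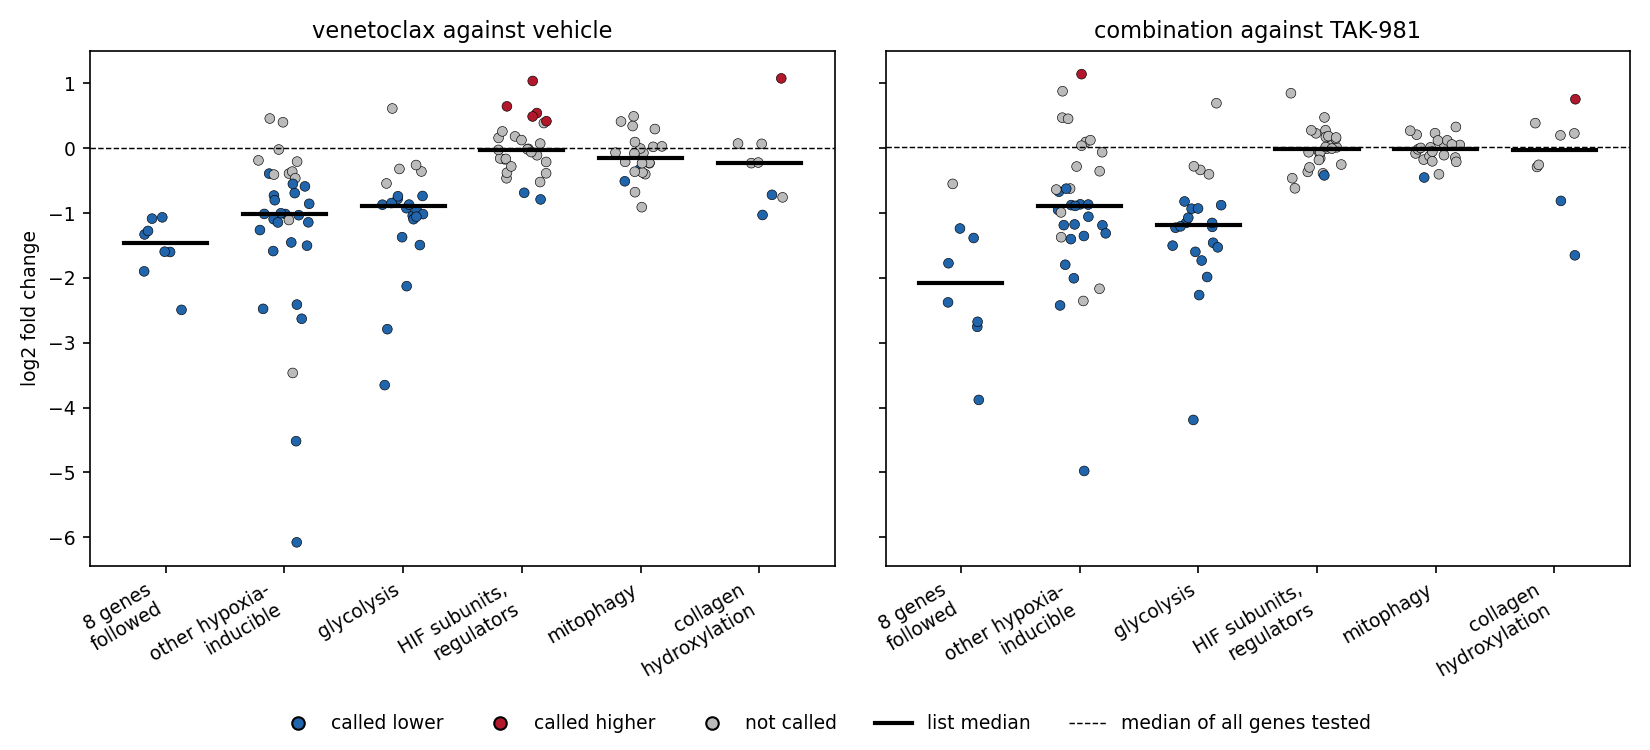
Log2 fold change of every tested gene of 6 lists for venetoclax against vehicle (left) and the combination against TAK-981 (right), 1 point a gene, coloured by call, with a thick line at the list median and a dashed line at the median of all genes; STC2 is left out because its values rest on at most 5 reads in the groups with venetoclax. Other genes near the floor are kept, among them CA9, at 0 CPM in both venetoclax libraries. The medians of the 8 genes, -1.46 and -2.07, lie below those of the other 5 lists, while the HIF regulator list lies near 0.

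The lists also held genes that set HIF activity. Of 27 tested HIF subunits and regulators, 5 rose and 2 fell with venetoclax and 3 rose and 3 fell with both drugs, with medians of -0.03 and 0.05. HIF1A itself was at 219.5 and 219.4 CPM in vehicle, 213 and 217 with TAK-981, 349.7 and 225 with venetoclax, and 181 and 181 with both drugs. It did not pass against vehicle with venetoclax (0.39, adjusted p = 0.136) or with both drugs (-0.28, adjusted p = 0.259), and was lower with both drugs than with venetoclax (-0.67, adjusted p = 0.0146). The chaperone gene HSP90AA1 rose by 1.04 with venetoclax and CUL2, the scaffold of the VHL ligase, by 0.54. SIAH2, a ligase that acts on the prolyl hydroxylases, was lower by a log2 difference of -0.61 with both drugs than with venetoclax, and SENP1, a SUMO protease, by -0.67. Protein levels were not measured.

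Genes that act beside the 8 were counted in the same way. Among mitophagy receptors and regulators, 2 of 22 tested fell and 0 rose with venetoclax, OPTN at -0.51 and NBR1 at -0.33, a share close to the 9.44% of all genes that fell. With both drugs 4 rose and 1 fell, where 12.8% of all genes rose and 15.1% fell. GABARAP, an autophagosome protein, was at 0.92. Against venetoclax alone 8 were higher and 2 lower, where 17.6% of all genes were higher and 22% lower. OPTN was at 0.72, NBR1 at 0.55 and the mitophagy kinase PINK1 at 0.95. BNIP3 was lower in that comparison, and its difference from these genes was not tested. Among collagen hydroxylation enzymes, PLOD1 (-1.03) and PLOD2 (-0.72), the lysyl hydroxylases, fell with venetoclax, while the prolyl isomerase PPIB rose by 1.08, of 8 tested. With both drugs 3 of the 8 rose and 2 fell, PLOD2 at -1.52 and PLOD1 at -0.59 against P3H4 at 1.03 and PPIB at 0.70. Of 5 tested genes of the VEGF family and its receptors, FLT4 fell with venetoclax, from 32 reads to 1, a ratio of 26.7 with a 95% counting interval of 4.46 to 1088. With both drugs the receptor FLT1 changed by -0.67 and the co-receptor NRP1 rose by 1.23. Of 4 tested genes listed with the adrenomedullin receptor, not all of them its subunits, CALCRL (-0.45) and the scavenging receptor ACKR3 (-1.01) fell with venetoclax. In the NDRG family 1 other gene was tested and did not pass with venetoclax (log2 change 0.34).

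The genes with the pattern most like that of the 8 were found over the 8 libraries, as a description. Each of 9851 genes of at least 5 CPM was correlated with the mean standardized log2 CPM of the 8 genes. That mean was 0.75 and 0.93 in vehicle, 0.72 and 0.88 with TAK-981, -0.28 and -0.97 with venetoclax, and -0.94 and -1.08 with both drugs. The highest Pearson r among other genes were LIMS1 at 0.994, PFKFB4 at 0.991, TAPT1 at 0.989, FUT11 at 0.987, PCMTD1 at 0.986, VGLL4 at 0.986, BMT2 at 0.986 and RSBN1 at 0.985. PFKFB4 makes a regulator of glycolytic flux, and FUT11 is a fucosyltransferase. Of the genes themselves BNIP3 at 0.981 was the closest to their mean and NDRG1 at 0.490 the farthest, and the other 6 lay between 0.947 and 0.979. The points share their library, its depth and its treatment group, and no test was made.

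**Figure D4:**
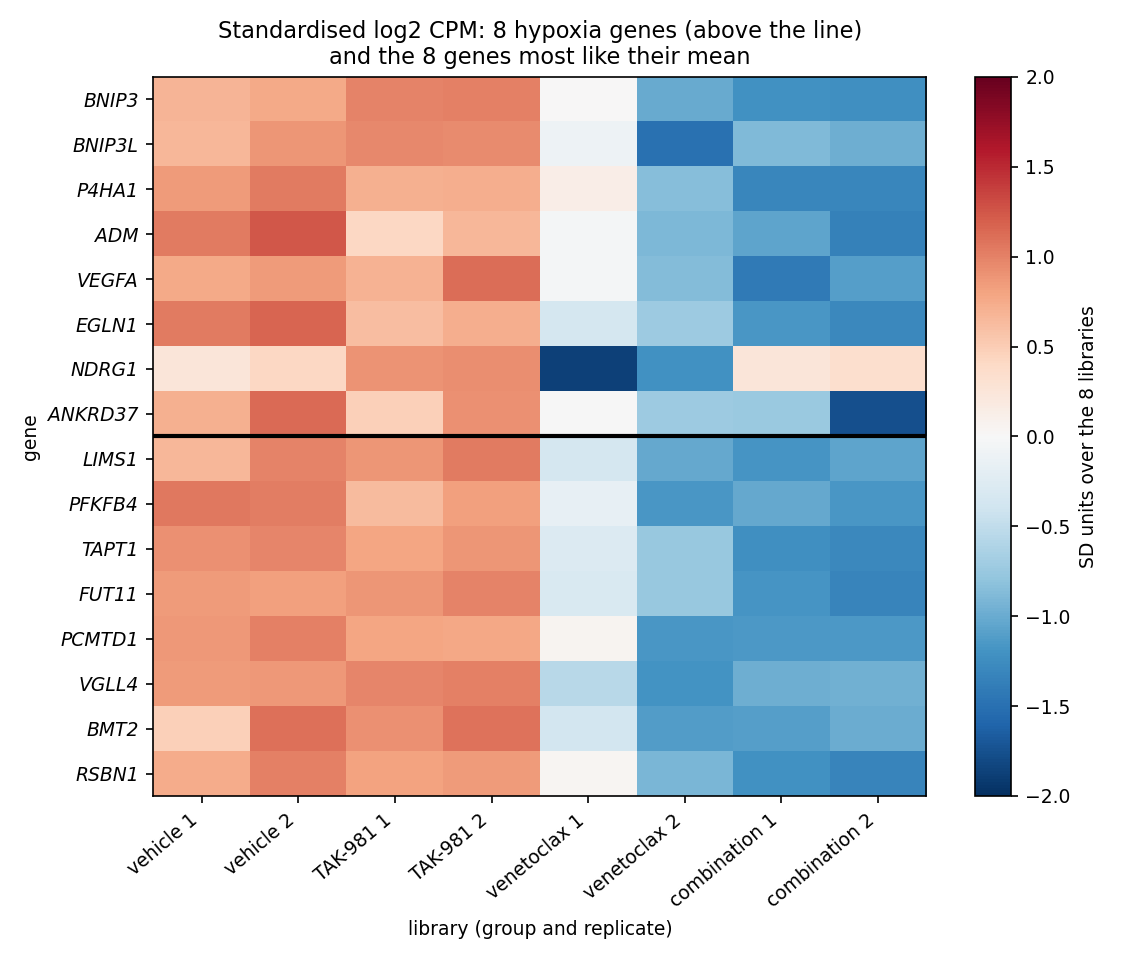
Standardised log2 CPM in SD units as a colour scale, libraries on the x axis and genes on the y axis, for the 8 hypoxia genes (above the line) and the 8 other genes most like their mean. All rows but NDRG1 are high in the vehicle and TAK-981 libraries and low in venetoclax replicate 2 and both combination libraries.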

How the data were processed

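RNA of KG1a cells was extracted by miRNeasy and read from a single end, per the labels' protocols. Those protocols name a SMART-Seq kit where the design text has ribosomal depletion, and the conflict was not settled. The authors deposited counts of reads per gene, not normalized, with a column of gene length in kb used here for RPKM. Per the submitters' processing notes, which give no roles, the tools included Trimmomatic, STAR 2.6.0, HTSeq 0.11.1 and edgeR, with build hg38. The strand setting and the annotation release were not given in the sources used here.

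Counts were tested in R 4.3.3 with edgeR 4.0.16 (limma 3.58.1): TMM scaling, filterByExpr by group, which kept 12843 genes, robust quasi-likelihood F test, 1 fit over 8 libraries, two-sided. P-values were adjusted over all of them after Benjamini-Hochberg, with 0.05 as the threshold. Adjusted p-values come from this fit unless another is named. The SE was taken as the size of the log2 fold change divided by the root of F and is approximate. The correlations used log2 CPM with a prior count of 2. Floors are 3 counts, and floors and intervals cover counting error only. The test was tried on simulated data that gave every group the same spread. The venetoclax libraries here spread more widely, so nothing is drawn from that trial. The genes, the lists, the 8 comparison lists included, and the alternatives were chosen with earlier results of these data known. Named were the 10 genes, up to 4 called genes a list and comparison with the smallest p, and the 8 genes most like the mean of the tested ones. HIF1A was named outside that rule, after its values were seen. As alternatives, DESeq2 1.42.0 and its size factors were used, as were no filter, the replicate block, each library left out, the 4 libraries of a comparison alone and no venetoclax libraries. In every group the libraries differed by more than sampling noise, so each was counted once.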

Additional observations from a re-analysis of the deposited data

Results flagged for a closer look

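BNIP3 was singled out because TAK-981 went with opposite directions in the absence and in the presence of venetoclax, in every library. The TAK-981 libraries, at 279.8 and 285.0 CPM, lay above the vehicle libraries, at 189 and 209.8 CPM. The combination libraries, at 19.3 and 19.0 CPM, lay below the venetoclax libraries, at 84.1 and 24.8 CPM. The interaction was -1.98 on the log2 scale (SE 0.588, unadjusted p = 0.00804) and did not pass edgeR's test after adjustment over all genes (adjusted p = 0.167). With no filter on low counts it did pass, at -1.99 (adjusted p = 2.83e-22). The size was nearly the same in both fits, so that p-value came from a smaller estimate of the spread. The venetoclax libraries differed 3.39-fold from each other for BNIP3, and nothing is drawn from that p-value. In the unfiltered fit 1098 of 18124 genes passed for the interaction, beside 4 of 12843 in the filtered fit. The BNIP3 value was -0.88 without venetoclax replicate 1 and -2.65 without replicate 2, the ends of its range with single libraries left out.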

How the results depend on the processing

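Of the single-gene values under the alternatives, 539 kept their direction and side of the threshold, 49 passed it newly, 46 no longer passed it and 6 turned their direction. Of the 8 genes, TAK-981 against vehicle called 0, where 1562 of 12843 genes passed. It called 3 with no filter (2309 of 18124 genes) and 2 with DESeq2 (1690 of 12843 genes). With the replicate block it called 1 (NDRG1 at 0.52, adjusted p = 0.0475), where 1739 of 12843 genes passed. It called 5 in the fit of the 4 libraries alone (4096 of 12590 genes) and 5 with no venetoclax libraries (3863 of 12793 genes). Venetoclax against vehicle called 8, and 3 with the 4 libraries alone and 3 to 8 with single libraries left out. The combination called 6 to 7 against vehicle and 2 to 8 against TAK-981 with single libraries left out. Against venetoclax it called 5, and 2 with the 4 libraries alone and 1 to 8 with single libraries left out. The interaction called 0, and 4 with no filter, where 1098 of 18124 genes passed, and 1 with DESeq2, where 266 of 12843 genes passed.

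Over all genes, the fit of the 4 libraries alone called 4096 for TAK-981 against vehicle (1562 in the fit of all 8), 200 for venetoclax against vehicle (2676), 5740 with both drugs against vehicle (3582), 3746 against TAK-981 (1130) and 2497 against venetoclax (5086). With no venetoclax libraries the counts were 3863, 6110 and 3678 for TAK-981 against vehicle, the combination against vehicle and against TAK-981. With no filter the combination against TAK-981 had 1875 and the interaction 1098. The interaction, with 4 calls, had 8 with DESeq2 size factors, 266 with DESeq2 and 24 with the replicate block. With single libraries left out the counts ran from 336 to 3879 for TAK-981 against vehicle, 253 to 5360 for venetoclax, 1431 to 6152 for both drugs against vehicle, 65 to 3696 against TAK-981, 2386 to 7204 against venetoclax and 0 to 4440 for the interaction. Of calls with venetoclax against vehicle 45.3% were lower, and 68.5% with the 4 libraries alone. For the combination against TAK-981 these were 68.6% and 54.2%.

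With single libraries left out, a direction turned for VEGFA with TAK-981 (-0.11 to 0.33), NDRG1 with both drugs against vehicle (-0.11 to 0.0403), BNIP3L with both drugs against venetoclax (-0.61 to 0.42) and the interactions of BNIP3L (-0.74 to 0.30) and ADM (-0.88 to 0.52). The cause was not tested. A fit that leaves out a library takes the lone library of that group to vary like the others. The replicate numbers name libraries, since no label ties them across groups and the correlation of deviations ran from -0.04 to 0.38 over the 6 pairs of groups. The replicate block called NDRG1 with TAK-981 as given above. Counts below about 3 a library limit P4HA2 and EGLN3.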
